A study of Mus musculus with 9 samples.

Results

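The platelet genes examined here were Itgb3, Itga2b, Pf4, Ppbp, Gp1ba, Gp1bb, Gp9, Gp6, Treml1 and Clec1b, 10 genes chosen by symbol, of 19938 genes measured in the series. The question was whether the higher Itgb3 signal in monocytes of Ccl2-/- mice went along with a higher signal of the other genes that platelets carry. Itgb3 in Ccl2-/- monocytes read 1.98-fold of wild type. None of the 6 other platelet genes that could be measured alone passed the test in either direction. Of all genes 0.16% passed in this comparison, so a count of 0 is near that share. Itga2b, whose product pairs with the Itgb3 product on platelets, read 1.02-fold of wild type (95% interval 0.882 to 1.17). Of the 10 genes, 7 had a transcript cluster of their own on the array (Itgb3, Itga2b, Pf4, Ppbp, Gp9, Treml1 and Clec1b). Gp1bb shared 1 cluster with its neighbour Septin5. No cluster with the symbol of Gp1ba or Gp6 was found in the annotation used here, so their levels were not read.

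Monocytes came from the blood of tumor-free mice aged 14 to 18 weeks in the Balb/c strain, in 3 groups: Ccl2-/- mice, which lack the chemokine CCL2, Ccr2-/- mice, which lack its receptor CCR2, and wild type mice. Each group had 3 arrays and each array held RNA pooled from 5 mice of 1 genotype, so every p below measures the spread between pools. Erythrocytes were lysed, lymphocytes (CD4, CD8, B220), neutrophils (Ly-6G), eosinophils (CCR3) and cells with MHC class II were removed with antibodies, and CD11b-bearing cells were kept. The methods name none of the removing antibodies as one against platelets, and CD11b is also found on NK cells and neutrophils. Intensities are given on the log2 scale, and no detection call was used, so whether a gene stood above background is not known.

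Across the series, the median intensity of an array lay between 324.1 and 355.1 except on Ccl2-/- replicate 1, where it was 430.8 and the mean correlation with the other arrays of its genotype was 0.972, against 0.981 to 0.994 elsewhere. Ccr2 itself averaged 9.44 ± 0.03 in Ccr2-/- and 12.76 ± 0.17 in Ccl2-/- monocytes, against 13.09 ± 0.15 in wild type (SD, n = 3 arrays). The Ccl2 cluster averaged 9.45 ± 0.36 in Ccl2-/- and 8.98 ± 0.21 in wild type monocytes (SD, n = 3 arrays), and whether its probes lie inside the deleted part is not known. The mean log2 level of 7 monocyte markers ranged from 12.25 to 12.44 over the Ccl2-/- arrays, from 11.95 to 12.07 over the Ccr2-/- arrays and from 12.37 to 12.49 over the wild type arrays, and 5 of these 7 markers fell in Ccr2-/- monocytes, as 8.38% of all genes did. All 9 NK cell markers rose in Ccr2-/- monocytes, as 4.91% of all genes did, where their mean level was 12.55 to 12.61, against 11.75 to 11.84 in wild type. In Ccl2-/- monocytes 0 of the 9 passed limma's test (7 higher at an unadjusted p under 0.05, as 6.78% of all genes were), with a mean level of 12.04 to 12.26.

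Platelets are fragments of megakaryocytes without a nucleus that stop bleeding, and they carry messenger RNA from their parent cell. They circulate among the blood leukocytes and can adhere to monocytes. Itgb3 encodes integrin beta3, which joins the product of Itga2b to form the platelet fibrinogen receptor and joins the product of Itgav to form the vitronectin receptor of many other cells, monocytes and macrophages among them. Itga2b, Pf4 and the glycoprotein genes are much more restricted to the megakaryocyte lineage, which is why they were read beside Itgb3. In a bulk sample, fewer cells of a type and less RNA per cell cannot be told apart.

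The promoters of megakaryocyte genes are known for sites of GATA and ETS factors. RefSeq promoter windows (assembly GRCm38.p6, 300 bases each, most of it upstream of the start and the rest just after it) were at hand for 9 of the 10 genes, all but Itgb3. They were searched on both strands for AGATAA and TGATAA, called GATA motifs below, and for AGGAAG, called the ETS motif. A GATA motif was in 4 of the 9 windows (Pf4, Clec1b, Gp1ba and Gp6), against 18.6% of all 32851 windows, and the ETS motif in 5 of the 9 (Itga2b, Pf4, Gp9, Gp1ba and Gp1bb), against 35.4%. The windows of Ppbp and Treml1 held neither string. A match describes the letters and is not a measured site. The 3 windows printed hold either kind of motif or both, and their genes had a cluster of their own: Itga2b (chr11:102469834-102470133, minus strand), Pf4 (chr5:90772185-90772484, plus strand) and Clec1b (chr6:129397047-129397346, plus strand). Each is read along the strand of its gene, 5′ to 3′, with the motifs in capitals, and CTTCCT is AGGAAG on the other strand.
Itga2b: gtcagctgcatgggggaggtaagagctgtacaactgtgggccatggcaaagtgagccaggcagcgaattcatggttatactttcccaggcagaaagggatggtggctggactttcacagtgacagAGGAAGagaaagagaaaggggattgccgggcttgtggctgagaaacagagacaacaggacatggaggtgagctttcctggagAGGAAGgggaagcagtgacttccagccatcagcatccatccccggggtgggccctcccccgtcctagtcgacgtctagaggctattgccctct
Pf4: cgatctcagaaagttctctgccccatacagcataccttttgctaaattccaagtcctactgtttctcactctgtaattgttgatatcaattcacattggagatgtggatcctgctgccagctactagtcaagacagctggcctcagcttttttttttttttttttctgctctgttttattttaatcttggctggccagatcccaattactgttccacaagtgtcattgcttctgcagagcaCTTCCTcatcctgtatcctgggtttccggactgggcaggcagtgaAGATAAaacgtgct
Clec1b: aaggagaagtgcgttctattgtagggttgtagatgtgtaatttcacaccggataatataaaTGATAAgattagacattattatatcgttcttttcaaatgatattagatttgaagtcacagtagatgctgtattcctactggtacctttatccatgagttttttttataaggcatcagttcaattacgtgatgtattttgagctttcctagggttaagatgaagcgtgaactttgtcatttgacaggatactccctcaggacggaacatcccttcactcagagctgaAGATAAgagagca

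Itgb3 read 10.73, 10.86 and 10.82 on the Ccl2-/- arrays, 9.71, 9.75 and 9.45 on the Ccr2-/- arrays, and 9.69, 9.80 and 9.97 on the wild type arrays. All 3 Ccl2-/- arrays lay above every other array (18.7% of all genes had no overlap of Ccl2-/- with wild type), and the Ccr2-/- and wild type arrays overlapped. The means were 10.81 ± 0.07 in Ccl2-/-, 9.64 ± 0.16 in Ccr2-/- and 9.82 ± 0.14 in wild type monocytes (SD, n = 3 arrays each). Ccl2-/- exceeded wild type by 0.99 on the log2 scale (SE 0.11), and Ccr2-/- differed from Ccl2-/- by -1.17, or 0.444-fold. Itgb3 was chosen for its difference between Ccl2-/- and wild type, so these are descriptions without a test. In Ccr2-/- monocytes, which the choice did not use except through the shared wild type arrays, the log2 change of Itgb3 against wild type was -0.18 (95% interval -0.42 to 0.06; limma adjusted p = 0.382). Itgb3 was thus highest in Ccl2-/- monocytes, while the order of wild type and Ccr2-/- monocytes did not exceed their spread.

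**Figure D1:**
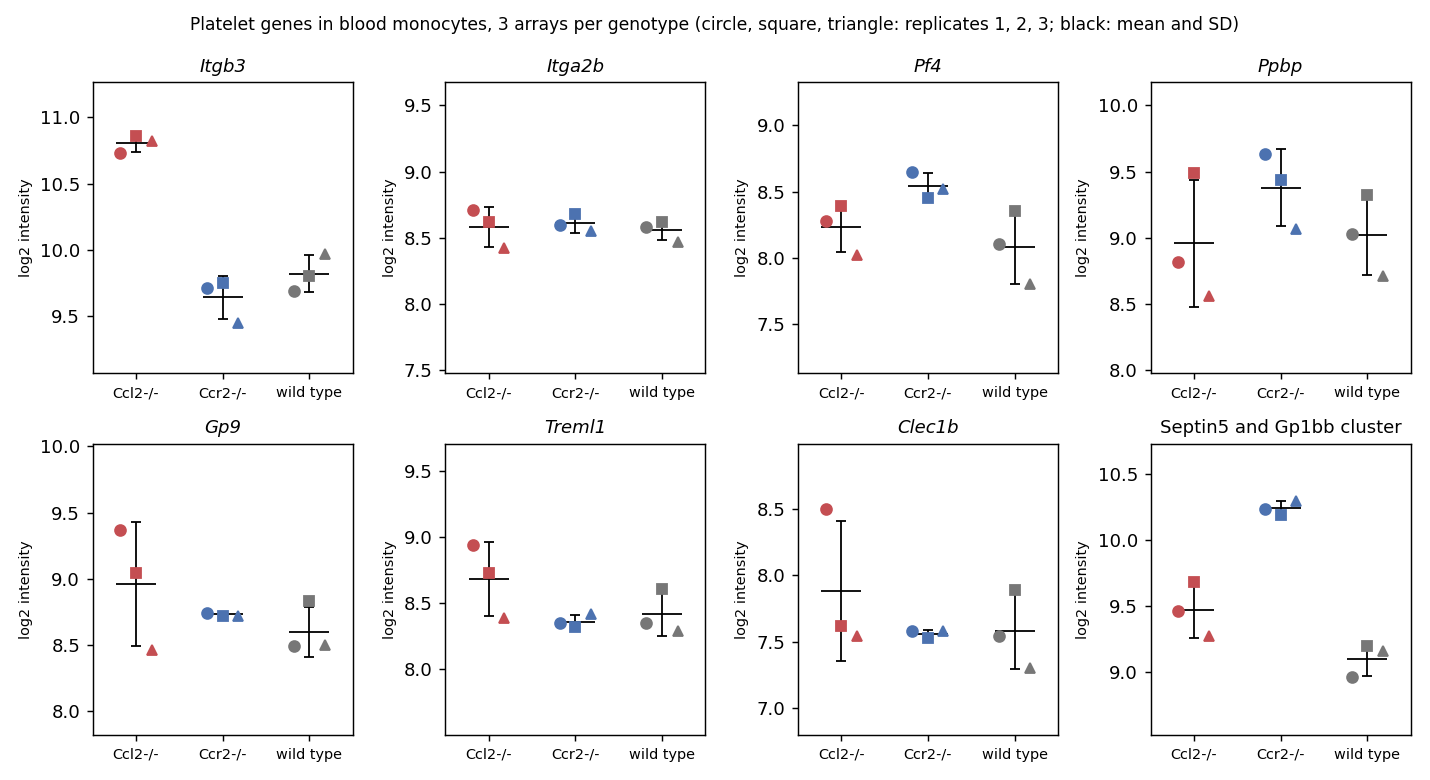
Log2 intensity (vertical axis) of 7 platelet genes and of the cluster shared by Septin5 and Gp1bb on each of the 9 arrays, by genotype (horizontal axis), where the symbols stand for replicates and black lines for the mean and SD of 3 arrays. Every panel spans the same number of log2 units, and the Ccl2-/- arrays stand clear of the wild type arrays for Itgb3 (10.73 to 10.86 against 9.69 to 9.97) and for the shared cluster (9.27 to 9.68 against 8.96 to 9.20).

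Itga2b, which encodes the alpha subunit of the platelet fibrinogen receptor, read 8.71, 8.62 and 8.42 on the Ccl2-/- arrays, 8.60, 8.68 and 8.55 on the Ccr2-/- arrays, and 8.58, 8.62 and 8.47 on the wild type arrays. The 3 genotypes overlapped throughout. The log2 change against wild type was 0.02 in Ccl2-/- (SE 0.09, 95% interval -0.18 to 0.23; limma adjusted p = 0.897; -0.09 after centring each array on its median or after quantile normalization) and 0.05 in Ccr2-/- monocytes (SE 0.09, 95% interval -0.15 to 0.26; limma adjusted p = 0.879). Itga2b stayed within narrow limits on arrays where its partner differed by 0.99. Its intensities before log2 were 342 to 419, near the array medians of 324.1 to 430.8. Whether it stood above background is not known, so the narrow limits may not describe the gene. The other partner of the Itgb3 product is encoded by Itgav, which read 11.16, 11.52 and 11.49 on the Ccl2-/- arrays, 11.17, 11.27 and 11.35 on the Ccr2-/- arrays, and 11.29, 11.30 and 11.52 on the wild type arrays. These overlapped as well, with a log2 change of 0.02 in Ccl2-/- (limma adjusted p = 0.949; -0.10 after centring and -0.02 after quantile normalization) and -0.11 in Ccr2-/- monocytes (limma adjusted p = 0.735).

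Pf4 and Ppbp encode the chemokines CXCL4 and CXCL7, which platelets store in their alpha granules. Pf4 read 8.28, 8.39 and 8.02 on the Ccl2-/- arrays, 8.65, 8.45 and 8.52 on the Ccr2-/- arrays, and 8.10, 8.35 and 7.80 on the wild type arrays. Its highest values were on the Ccr2-/- arrays, which overlapped neither other genotype, whereas Ccl2-/- and wild type overlapped. The log2 change of Pf4 was 0.14 in Ccl2-/- (SE 0.15; limma adjusted p = 0.631) and 0.46 in Ccr2-/- monocytes (SE 0.15, 95% interval 0.11 to 0.80, 1.37-fold; limma adjusted p = 0.0899, unadjusted p = 0.0149). This did not pass the test with all 9 arrays, and without wild type replicate 2 it did, at 0.59 (adjusted p = 0.042). Ppbp read 8.82, 9.49 and 8.56 on the Ccl2-/- arrays, 9.63, 9.44 and 9.07 on the Ccr2-/- arrays, and 9.03, 9.32 and 8.71 on the wild type arrays. Its arrays overlapped in every pair of genotypes, with a log2 change of -0.06 in Ccl2-/- (SE 0.26; limma adjusted p = 0.913) and 0.36 in Ccr2-/- monocytes (SE 0.26; limma adjusted p = 0.532).

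Gp9 encodes a subunit of the von Willebrand factor receptor of platelets, Treml1 an alpha granule membrane protein that appears on activated platelets, and Clec1b the podoplanin receptor CLEC-2. Gp9 read 9.37, 9.04 and 8.46 on the Ccl2-/- arrays, 8.74, 8.72 and 8.72 on the Ccr2-/- arrays, and 8.49, 8.83 and 8.50 on the wild type arrays. Treml1 read 8.94, 8.73 and 8.39 on the Ccl2-/- arrays, 8.35, 8.32 and 8.42 on the Ccr2-/- arrays, and 8.35, 8.61 and 8.29 on the wild type arrays. Clec1b read 8.50, 7.62 and 7.54 on the Ccl2-/- arrays, 7.58, 7.53 and 7.58 on the Ccr2-/- arrays, and 7.54, 7.89 and 7.30 on the wild type arrays. All 3 genes were highest on Ccl2-/- replicate 1, the array with the raised median, and Ccl2-/- replicate 3 lay below wild type replicate 2 for each of them. Their log2 changes in Ccl2-/- monocytes were 0.35 for Gp9 (SE 0.21; limma adjusted p = 0.477), 0.26 for Treml1 (SE 0.14; limma adjusted p = 0.456) and 0.31 for Clec1b (SE 0.25; limma adjusted p = 0.560). These values rested on single arrays. Without Ccl2-/- replicate 1 they were 0.15 for Gp9, 0.14 for Treml1 and -0.002 for Clec1b, and without Ccl2-/- replicate 3 they were 0.61 for Gp9 (adjusted p = 0.0676), 0.41 for Treml1 (0.111) and 0.48 for Clec1b (0.252). Clec1b was also 0.46 without wild type replicate 2 and 0.17 without wild type replicate 3. Against wild type, the log2 changes in Ccr2-/- monocytes were 0.12 for Gp9 (limma adjusted p = 0.868), -0.06 for Treml1 (limma adjusted p = 0.924) and -0.01 for Clec1b (limma adjusted p = 0.989).

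**Figure D2:**
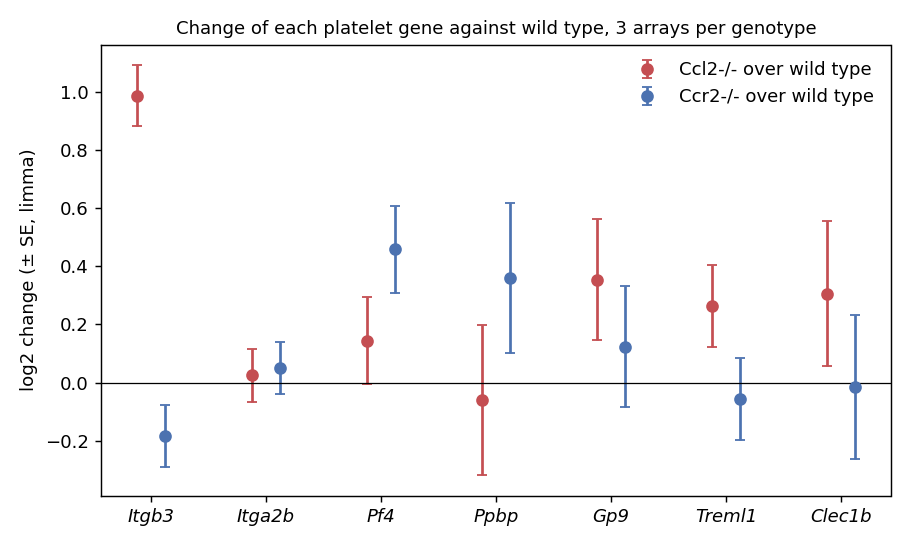
Log2 change against wild type (vertical axis, bars are ± SE from limma) of each platelet gene (horizontal axis) in Ccl2-/- and in Ccr2-/- monocytes, 3 arrays per genotype. Itgb3 stands at 0.99 in Ccl2-/- and -0.18 in Ccr2-/- monocytes, and the other 6 genes lie between -0.06 and 0.46 in both.

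In Ccl2-/- against wild type monocytes, 0 of the 6 platelet genes other than Itgb3 passed limma's test (0 also at an unadjusted p under 0.05), where 0.16% of all genes passed and 13.1% had such an unadjusted p. By the size limits of the study's methods, a ratio over 1.2 and a difference over 100, Gp9 was 1 of 6, against 11.6% of all genes. The median log2 change of the 6 genes was 0.20, beside 0.08 over all genes. Centring each array on its median lowered the median of all genes to -0.03, that of the 6 genes to 0.09 and the Itgb3 difference to 0.87. With single arrays left out, the median of the 6 ranged from 0.06 (without Ccl2-/- replicate 1) to 0.33 (without Ccl2-/- replicate 3), and it was 0.32 without wild type replicate 2 and 0.09 without wild type replicate 3. The upper ends of the 95% intervals with all arrays ran from 1.17-fold for Itga2b to 1.83-fold for Clec1b. In Ccr2-/- against wild type monocytes, 0 of 7 genes passed limma's test (1 at an unadjusted p under 0.05, Pf4), where 13.3% of all genes passed and 23.2% had such an unadjusted p. The size limits took Ppbp, 1 of 7, against 15.8% of all genes. Of the 7 genes, Pf4 alone had arrays that did not overlap wild type, as 33.9% of all genes had. The median of the 6 genes other than Itgb3 was 0.09, beside 0.01 over all genes.

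The knockouts were also set against each other. In Ccr2-/- against Ccl2-/- monocytes, 0 of the 6 genes other than Itgb3 passed limma's test (0 also at an unadjusted p under 0.05), where 3.6% of all genes passed and 18.6% had such an unadjusted p. The log2 changes were 0.42 for Ppbp (adjusted p = 0.424), 0.31 for Pf4 (0.310), 0.03 for Itga2b (0.898), -0.23 for Gp9 (0.583), -0.32 for Treml1 (0.277) and -0.32 for Clec1b (0.524). The median of the 6 genes was -0.10, beside -0.08 over all genes, and 0.01 beside 0.03 after centring, which also turned the split of all calls from 146 higher and 572 lower into 187 higher and 74 lower. Both chemokine genes were on the higher side and Gp9, Treml1 and Clec1b on the lower, none past the test. Pf4 was the 1 gene of the 6 whose arrays did not overlap here, against 23.6% of all genes, and Ppbp the 1 past the size limits, against 12.6%.

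Within a genotype, the 6 genes often shared their highest and lowest array, and Itgb3 went with some of them at some ends and apart from all of them at others. Among the wild type arrays, replicate 2 was the highest for 6 of 6 genes and replicate 3 the lowest for 5 of 6. Itgb3 was highest there on replicate 3 and, like Gp9, lowest on replicate 1. Among the Ccl2-/- arrays, replicate 3 was the lowest for 6 of 6 genes, while Itgb3 was lowest on replicate 1. The highest Ccl2-/- array was replicate 1 for 4 genes and replicate 2 for the other 2, Pf4 and Ppbp, and for Itgb3. The Ccr2-/- arrays had no shared order. Itgb3 was lowest there on replicate 3, as 3 of the 6 genes were, and highest on replicate 2, as 1 was. The distance from the lowest to the highest array of a gene was 0.29 to 0.96 in Ccl2-/-, 0.02 to 0.56 in Ccr2-/- and 0.15 to 0.61 in wild type monocytes over the 6 genes. For Itgb3 it was 0.13, 0.30 and 0.29, so its order over the Ccl2-/- arrays rests on small differences. The median intensity of an array also moved along: it was highest on replicate 1 and lowest on replicate 3 of Ccl2-/-, and highest on replicate 2 and lowest on replicate 3 of wild type, and its part in this order was not tested.

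**Figure D3:**
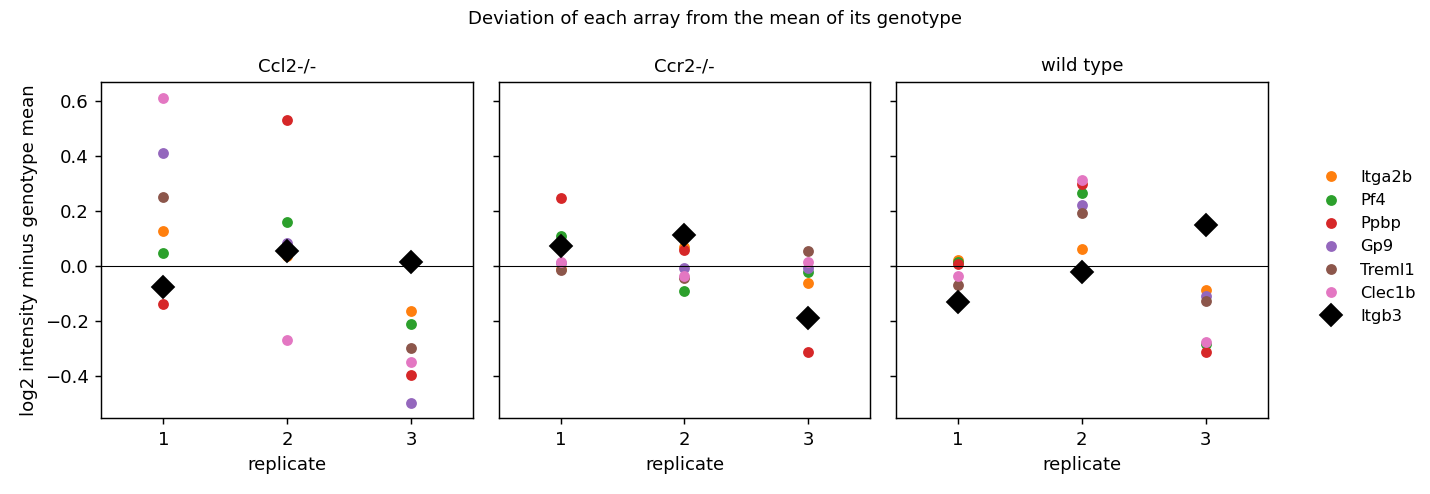
Log2 intensity of each array minus the mean of its genotype (vertical axis) by replicate (horizontal axis), for 6 platelet genes (coloured circles) and Itgb3 (black diamonds) in the 3 genotypes. In wild type the circles are highest on replicate 2 for 6 of 6 genes and the diamond is highest on replicate 3; in Ccl2-/- the circles are lowest on replicate 3 for 6 of 6 genes and the diamond is lowest on replicate 1.

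The mean log2 level of the 6 genes was 8.77, 8.65 and 8.23 on the Ccl2-/- arrays, 8.59, 8.52 and 8.48 on the Ccr2-/- arrays, and 8.35, 8.60 and 8.18 on the wild type arrays, and the genotypes overlapped. Itgb3 minus this mean was 1.96, 2.21 and 2.60 on the Ccl2-/- arrays, 1.12, 1.22 and 0.97 on the Ccr2-/- arrays, and 1.34, 1.2 and 1.79 on the wild type arrays. The Ccl2-/- arrays overlapped neither other genotype in this difference, which carries the Itgb3 values for which the gene was chosen and is a description.

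Genes were also ranked by how closely their 9 values, centred on each gene's own mean, followed those of Itgb3, by the root mean square difference on the log2 scale. Over 19937 genes the nearest were Xaf1 (0.175), an interferon-induced gene, Pla2g5 (0.256), a secreted phospholipase, and the less known Gm5039 (0.279), Mir323 (0.284) and Pramel27 (0.295). A gene with the same value on every array would stand at 0.525. Treml1 ranked 708 (0.433), Gp9 ranked 3824 (0.479) and Clec1b ranked 7093 (0.505), nearer to Itgb3 than such a gene. Itga2b ranked 11735 (0.537), Pf4 ranked 18402 (0.647) and Ppbp ranked 19322 (0.723), farther from it. None of the platelet genes was among the nearest genes named here, and the closest of them, Treml1, stood at rank 708 of 19937. A gene that moves the same way by a smaller amount also stands at a distance by this measure. The ranking also carries the Itgb3 values for which the gene was chosen. It therefore cannot decide whether the platelet genes followed Itgb3. The genes nearest to Pf4 were Cyp2a12, Stc2, Ly9, Csrp1 and Galnt12 (0.0855 to 0.104, where a gene with the same value on every array would stand at 0.253), with Ppbp at rank 1833, Itga2b at 1977 and Itgb3 at 19644. All these values share the 9 arrays and are descriptions.

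Gp1bb encodes a further subunit of the von Willebrand factor receptor, and its cluster also carries the symbol of Septin5, a cytoskeletal GTPase gene beside it. Their transcripts cannot be told apart here. The shared cluster read 9.46, 9.68 and 9.27 on the Ccl2-/- arrays, 10.23, 10.19 and 10.29 on the Ccr2-/- arrays, and 8.96, 9.20 and 9.16 on the wild type arrays. The 3 genotypes did not overlap. Tested among all 35512 clusters, a choice made after the data were seen, it rose in Ccr2-/- monocytes with a log2 change of 1.13 (SE 0.12; limma adjusted p = 0.0025), where 7.45% of all clusters were called. In Ccl2-/- monocytes the log2 change was 0.36 (limma adjusted p = 0.376), where 0.0535% were called. The level in Ccr2-/- exceeded that in Ccl2-/- monocytes by 0.77 (limma adjusted p = 0.0433, where 0.648% were called). This call was lost when any single array was left out (0.0627 to 0.185). It was also lost after quantile normalization (0.0726), after centring (0.14) and when the wild type arrays were kept out of the fit (0.209). Gp9, whose product belongs to the same receptor, changed by 0.12 in Ccr2-/- monocytes (limma adjusted p = 0.868).

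A wider list of 26 platelet and megakaryocyte genes had 23 measured members. In Ccl2-/- monocytes 0 of 23 passed limma's test (6 higher and 4 lower at an unadjusted p under 0.05, as 6.78% and 6.32% of all genes were). The median log2 change of the list was 0.12, beside 0.08 over all genes, and 17 of the 23 lay above 0. The arrays of 10 genes did not overlap wild type, against 18.7% of all genes. By the size limits 9 genes were past them, against 11.6%. The changes ran from -0.50 to 0.86, and the smallest adjusted p from limma was 0.0666. The highest was F2rl2, which averaged 10.39 ± 0.26 in Ccl2-/- and 9.53 ± 0.20 in wild type monocytes (SD, n = 3 arrays). The platelet glycoprotein gene Gp5 changed by 0.28 (adjusted p = 0.391), the platelet tubulin gene Tubb1 by -0.09 (0.635) and Vwf, which encodes von Willebrand factor, by 0.24 (0.283). In Ccr2-/- monocytes 4 rose and 3 fell, with a median of 0.02 beside 0.01 over all genes. The count of risers is read against the 4.91% of all genes that rose, and that of fallers against 8.38%. Gp5 (-0.07, adjusted p = 0.890) and Tubb1 (0.02, 0.956) did not pass in this genotype either.

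The 4 that rose in Ccr2-/- monocytes were F2rl2, which encodes a thrombin receptor of mouse platelets, Rab27b, a granule secretion GTPase, Itga2, a collagen receptor subunit that NK cells also carry, and Nrgn, a calmodulin-binding protein gene. F2rl2 read 10.81, 10.90 and 10.92 on the Ccr2-/- arrays, against 9.42, 9.75 and 9.40 on the wild type arrays, a log2 change of 1.35 (adjusted p = 0.00083). The log2 changes of the others were 1.14 for Rab27b (adjusted p = 0.000765), 1.05 for Itga2 (0.00121) and 0.72 for Nrgn (0.00538). None of these calls was lost in any alternative run. NK cell markers were higher on the same arrays, as given above, and their part in these rises was not tested. The 3 that fell were Pdlim1 (-0.94, adjusted p = 0.0004), a cytoskeletal adaptor gene, Rgs18 (-0.75, 0.0157), a regulator of G protein signalling, and P2ry12 (-0.77, 0.027), the platelet ADP receptor gene. Pdlim1 read 10.86, 10.90 and 10.90 on the Ccr2-/- arrays, against 11.90, 11.76 and 11.81 on the wild type arrays. The call of Rgs18 was lost without wild type replicates 1 or 3 or Ccr2-/- replicates 1 or 3 (0.0586 to 0.0647) and after centring (0.0602). That of P2ry12 was lost without any 1 of the Ccr2-/- arrays (0.0797 to 0.0856), and its highest wild type value was on replicate 1 (9.27, against 8.59 and 8.47 on the others). Monocyte markers were lower on the same Ccr2-/- arrays, and their part in these falls was not tested. In Ccl2-/- monocytes all 4 risers also lay above every wild type array, none past the test. Their means there were 8.90 for Rab27b, 12.11 for Itga2 and 9.82 for Nrgn, against 8.39, 11.52 and 9.30 in wild type. The 3 that fell lay below every wild type array there, also not past the test. Pdlim1 averaged 11.49, Rgs18 10.95 and P2ry12 8.28, against 11.82, 11.43 and 8.78 in wild type.

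**Figure D4:**
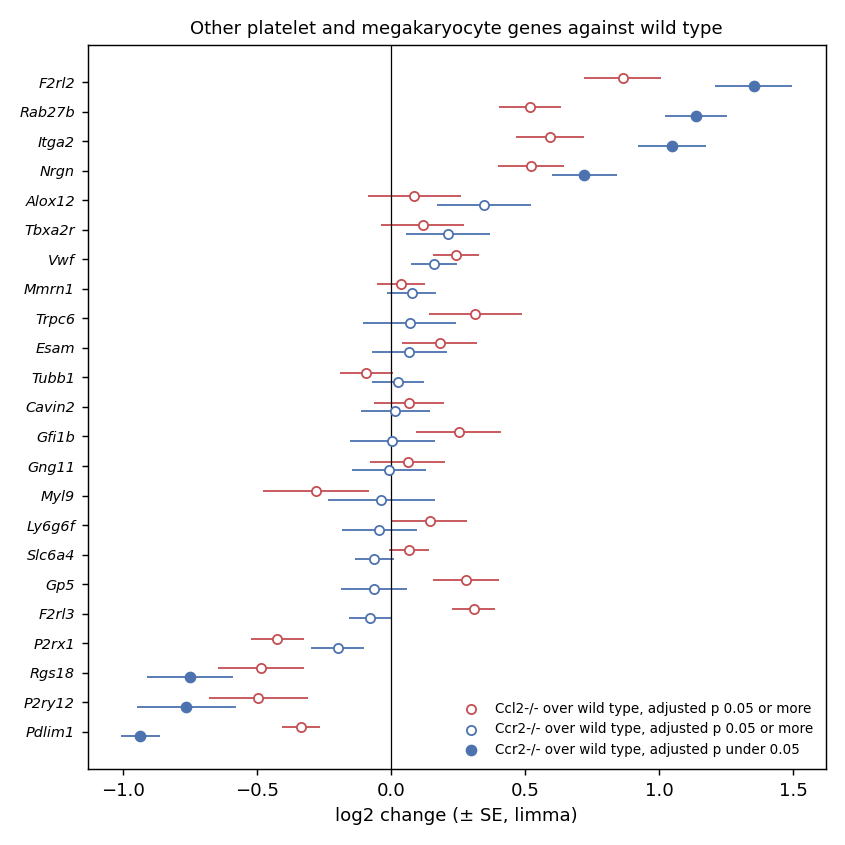
Log2 change against wild type (horizontal axis, bars are ± SE from limma, filled points passed at an adjusted p under 0.05) of 23 further platelet and megakaryocyte genes (vertical axis) in Ccl2-/- and in Ccr2-/- monocytes. No Ccl2-/- point is filled, and 7 Ccr2-/- points are, 4 to the right from F2rl2 (1.35) to Nrgn (0.72) and 3 to the left from Pdlim1 (-0.94) to Rgs18 (-0.75).

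Of 11 transcription factors of the megakaryocyte lineage, 0 passed limma's test in Ccl2-/- monocytes (1 higher and 2 lower at an unadjusted p under 0.05), against 0.16% of all genes passing and 6.78% higher and 6.32% lower at that p. Zfpm1, which encodes the GATA partner FOG-1, rose in Ccr2-/- monocytes (log2 change 1.07, adjusted p = 0.000861) and Nfe2, which encodes a subunit of the factor NF-E2, fell there (-0.78, adjusted p = 0.00126). These 2 of 11 are close to the 13.3% of all genes that passed. Zfpm1 read 11.44, 11.36 and 11.27 on the Ccr2-/- arrays, against 10.20, 10.38 and 10.29 on the wild type arrays. On the Ccl2-/- arrays it read 11.10, 11.01 and 10.68, also above every wild type array, a log2 change of 0.64 that did not pass the test. Nfe2 averaged 10.95 ± 0.14 in Ccl2-/- and 11.21 ± 0.02 in wild type monocytes (SD, n = 3 arrays), also not past the test. Gata1, the main GATA factor of megakaryocytes and erythroid cells, had a log2 change of 0.15 in Ccl2-/- (adjusted p = 0.646) and -0.20 in Ccr2-/- monocytes (adjusted p = 0.617). Fli1, an ETS factor of the lineage, changed by 0.06 in Ccl2-/- (adjusted p = 0.659) and by 0.06 in Ccr2-/- monocytes (adjusted p = 0.747). Neither Gata1 nor Fli1 passed the test in either knockout.

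Of 7 measured ligands of integrins that hold the Itgb3 product, 0 passed limma's test in Ccl2-/- monocytes (2 higher and 1 lower at an unadjusted p under 0.05, as 6.78% and 6.32% of all genes were) and 2 fell in Ccr2-/- monocytes, as 8.38% of all genes did. These were Thbs1, which encodes thrombospondin-1 and changed by -1.20 on the log2 scale (adjusted p = 0.000517), and Fn1, which encodes fibronectin and changed by -0.74 (adjusted p = 0.00058). Thbs1 read 10.23, 10.21 and 10.39 on the Ccr2-/- arrays, against 11.43, 11.52 and 11.47 on the wild type arrays, with a log2 change of -0.003 in Ccl2-/- monocytes (adjusted p = 0.990). The fibrinogen chain genes Fga, Fgb and Fgg changed by between -0.15 and 0.11 in the knockouts, none past the test. Of 18 genes of signalling to and from this integrin, 0 passed limma's test in Ccl2-/- monocytes (1 higher and 1 lower at an unadjusted p under 0.05, a share near or under that of all genes, 6.78% and 6.32%). Its activators showed small values there, 0.09 for the talin gene Tln1 (adjusted p = 0.505) and -0.04 for the kindlin-3 gene Fermt3 (adjusted p = 0.765).

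In Ccr2-/- monocytes 1 of these 18 genes rose, the kinase gene Fyn (0.42, adjusted p = 0.00806), and 3 fell, the kinase gene Syk (-0.31, adjusted p = 0.0135), the vinculin gene Vcl (-0.33, adjusted p = 0.0359) and the integrin-linked kinase gene Ilk (-0.25, adjusted p = 0.0497). Of all genes 4.91% rose and 8.38% fell, so the 1 rise is at the share of all genes. The call of Fyn was kept in every alternative run. That of Syk was lost without wild type replicate 2 or Ccr2-/- replicates 1 or 2 (0.0547 to 0.0662) and after centring (0.0897). Those of Vcl (0.0596 to 0.139) and Ilk (0.0503 to 0.182) were lost without any single array of Ccr2-/- or wild type, both also without Ccl2-/- replicate 2, after quantile normalization (0.0895 and 0.0908) and after centring (0.234 and 0.154). Ilk was also lost without Ccl2-/- replicate 3, with the mean of a gene's clusters (0.0503) and when the Ccl2-/- arrays were kept out of the fit (0.0508). Of 11 genes that act below the collagen and podoplanin receptors, GPVI and CLEC-2, 0 passed limma's test in Ccl2-/- monocytes (2 higher and 1 lower at an unadjusted p under 0.05, against the same 6.78% and 6.32%). In Ccr2-/- monocytes 2 rose and 2 fell, against the same 4.91% and 8.38%, namely Grap2 (0.98, adjusted p = 0.00198) and Fyn, and Btk (-0.83, adjusted p = 0.00158) and Syk. Grap2 and Btk encode an adaptor and a kinase, and their calls were kept in every alternative run.

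Among 14 other integrin subunit genes, 1 passed limma's test in Ccl2-/- monocytes, against 0.16% of all genes (3 were higher at an unadjusted p under 0.05, against 6.78%). It was Itga1, which encodes the alpha subunit of a collagen receptor, which fell (-0.87, adjusted p = 0.00555; 0.085 in a fit of the 6 arrays compared). No integrin gene on the list was higher past the test. Itga2 averaged 12.11 ± 0.25 in Ccl2-/- against 11.52 ± 0.12 in wild type monocytes (SD, n = 3 arrays), without overlap and not past the test. In Ccr2-/- monocytes Itga2 rose, as above, while Itga1 (-1.31, adjusted p = 0.000146), Itgb5 (-0.54, adjusted p = 0.00709) and Itga5 (-0.53, adjusted p = 0.0188) fell, against 4.91% rising and 8.38% falling over all genes. Itgb5 encodes another beta subunit that pairs with the Itgav product, and Itga5 a fibronectin receptor subunit. The call of Itga5 was lost without wild type replicate 1 or any 1 of the Ccr2-/- arrays (0.0505 to 0.0789). Cd9, a tetraspanin gene of platelets and of Ly-6Clo monocytes, read 10.96, 11.06 and 10.98 on the Ccl2-/- arrays, 11.19, 11.21 and 11.26 on the Ccr2-/- arrays, and 10.39, 10.45 and 10.56 on the wild type arrays. It was higher in both knockouts (log2 change 0.75 in Ccr2-/-, adjusted p = 0.000612, and 0.53 in Ccl2-/-, adjusted p = 0.0334), whereas the log2 change of Itgb3 was -0.18 in Ccr2-/- monocytes. The Ccl2-/- call of Cd9 was lost without any single array but Ccl2-/- replicates 1 and 3 (0.0803 to 0.217), after quantile normalization (0.0625), after centring (0.224) and when the Ccr2-/- arrays were kept out of the fit (0.269).

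Markers of other blood cells were read on the same arrays. Of 5 measured erythroid markers, 0 passed limma's test in Ccl2-/- monocytes, where 0.16% of all genes passed. At an unadjusted p under 0.05 the count was also 0, against 13.1% of all genes. All 5 lay above 0 there, with a median log2 change of 0.23 beside 0.08 over all genes. Their mean level ranged from 8.49 to 9.52 over the Ccl2-/- arrays, from 8.94 to 9.25 over the Ccr2-/- arrays and from 8.47 to 8.95 over the wild type arrays. Of 7 measured basophil and mast cell markers, 0 passed in Ccl2-/- monocytes (0 higher and 6 lower at an unadjusted p under 0.05, against 6.78% and 6.32% of all genes). Their median log2 change was -0.75, and their mean level was 8.34 to 8.79 over the Ccl2-/- arrays, against 8.89 to 9.74 over the wild type arrays. Their part in the platelet gene values was not tested. Of 15 measured markers of Ly-6Clo monocytes, 1 passed limma's test as higher in Ccl2-/- monocytes, Cd9, where 0.16% of all genes passed. At an unadjusted p under 0.05, 7 were higher and 0 lower, against 6.78% and 6.32% of all genes. Their median log2 change was 0.18. Their mean level was 12.32 to 12.46 over the Ccl2-/- arrays, against 12.01 to 12.31 over the wild type arrays. The part of Ly-6Clo monocytes in the Itgb3 values was not tested. Of 8 measured markers of Ly-6Chi monocytes, 0 passed in Ccl2-/- monocytes (8 lower at an unadjusted p under 0.05, against 6.32% of all genes) and 8 fell in Ccr2-/- monocytes, against 8.38%. Of 6 T cell, 4 B cell, 8 neutrophil and 5 eosinophil markers, 0 passed in Ccl2-/- monocytes, with 3 B cell markers lower and 1 neutrophil marker higher at an unadjusted p under 0.05, against the same 6.32% and 6.78%.

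Itgb3 and Ccl2 both lie on chromosome 11. The 10 measured genes around Itgb3, 5 on each side from Sppl2c to Mrc2, were looked at after the data were seen. In Ccl2-/- against wild type monocytes their log2 changes lay between -0.13 and 0.26. Of these genes 0 passed limma's test (adjusted p 0.251 to 0.768), where 0.16% of all genes passed. Only 1 of the 10, 1700052K11Rik, had an unadjusted p under 0.05, against 13.1% of all genes. Both counts are near the shares of all genes. The nearest measured genes on each side, Myl4 and Efcab3, were among the 10.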

How the data were processed

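RNA of blood monocytes from Ccl2-/-, Ccr2-/- and wild type mice was hybridized to Affymetrix Mouse Gene 1.0 ST arrays, where each of the 3 arrays per genotype took 1 pool of 5 mice. The authors computed linear intensity values from the scanned arrays with dChip and deposited 1 value for each of 35512 transcript clusters and array; the dChip version, normalization and expression model are not given in the sources used here. Arrays have no read depth, so their number limits the precision.

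Clusters carrying 1 gene symbol were kept, and of several clusters of a gene the one with the highest mean log2 value was taken, giving 19938 genes. Values under 1 were set to 1, log2 was taken, and no step was applied between arrays. All 9 arrays entered 1 linear model of genotype in limma 3.58.1 (R 4.3.3), with 1 variance prior (empirical Bayes, Benjamini-Hochberg adjustment over all genes per comparison, adjusted p under 0.05); the script was tested on simulated data. Every adjusted p in the report comes from limma, from this fit unless an alternative is named beside it; the cluster of Septin5 and Gp1bb was fitted among all clusters. The size limits of the study's methods, namely a ratio above 1.2 together with a difference above 100, were applied to arithmetic group means.

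The 10 genes and the gene lists were chosen with earlier results of these data known. The rule for named genes took all 10 genes, up to 4 list members with the smallest p past the test, Itgav, and the 5 genes nearest to Itgb3 and to Pf4; other list members that did not pass were named for their role, and the neighbours of Itgb3 after their values were seen. The alternatives were quantile normalization, centring on the array median, an offset of 50 before log2, leaving out genes whose mean was 100 or lower, variances that follow intensity, averaging all clusters of a gene, fits of 6 arrays, a block for the replicate number, leaving out single arrays, the size limits and, added later, all clusters. Promoter windows came from RefSeq, assembly GRCm38.p6.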

Additional observations from a re-analysis of the deposited data

How the results depend on the processing

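With 3 pools per genotype, small changes of the platelet genes could not be told from the spread, and no detection call bounds the dim ones. Under the alternatives the Itgb3 difference between Ccl2-/- and wild type stayed between 0.87 and 1.06, and that between Ccr2-/- and Ccl2-/- between -1.23 and -1.06. The count of the other platelet genes past limma's test in Ccl2-/- against wild type was 0 under every alternative fit. By the size limits 1 gene was past them in each comparison (1 in Ccl2-/- against wild type, 1 in Ccr2-/- against wild type, 1 in Ccr2-/- against Ccl2-/-). With each array left out in turn, the count in Ccr2-/- against wild type ranged from 0 to 1, the 1 being Pf4 without wild type replicate 2.

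Some directions turned, none of a change past the test. For Itga2b in Ccl2-/- against wild type the log2 change was -0.0872 with quantile normalization, -0.0887 after centring and -0.0394 to 0.11 with single arrays left out, and in Ccr2-/- against Ccl2-/- it was -0.056 to 0.0899 with single arrays left out. Leaving out single arrays gave -0.33 to 0.14 for Ppbp and -0.0024 to 0.48 for Clec1b in Ccl2-/- against wild type, and -0.12 to 0.0416 for Treml1 and -0.15 to 0.14 for Clec1b in Ccr2-/- against wild type. For Itgav in Ccl2-/- against wild type the value was -0.0184 with quantile normalization, -0.0982 after centring and -0.0498 to 0.13 with single arrays left out. The cause was not tested.

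The labels do not say whether the replicate numbers pair the samples. Deviations of same-numbered arrays correlated by -0.18 to 0.56 between Ccl2-/- and wild type. The range was -0.15 to 0.10 between Ccr2-/- and wild type and -0.11 to 0.13 between the knockouts. Arrays of different numbers were not compared, so these values cannot decide whether the samples were paired. With the replicate number as a block, 0 platelet genes other than Itgb3 passed in each comparison and the Itgb3 difference between Ccl2-/- and wild type stayed 0.99, while the calls over all genes were 7 in place of 32 in Ccl2-/- against wild type, 2094 in place of 2648 in Ccr2-/- against wild type and 167 in place of 718 between the knockouts. The block also ended the calls of Cd9 in Ccl2-/- (adjusted p = 0.156), of Vcl (0.0605) and Ilk (0.109) in Ccr2-/- against wild type, and of the Septin5 and Gp1bb cluster between the knockouts (0.126), and no other call of a gene named in the report for which alternatives were run.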
